A study of Mus musculus with 24 samples.

Results

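The hypoxia and glycolysis response is taken here as 37 genes that answer to low oxygen or carry glucose to lactate: 3 alpha subunits of the hypoxia-inducible factors (Hif1a, Epas1, Hif3a), 2 of the enzymes that mark them for breakdown (Egln1, Egln3), the enzymes and transporters of glycolysis, pyruvate dehydrogenase kinases, and a set of genes known to be switched on in hypoxia. They were chosen by symbol, with earlier results of these data known, and matched 38 of the 32288 rows of the deposited gene list, since Aldoa stands on 2 rows. Their levels were read in nuclei of mouse deep brain and cortex by single-nucleus RNA-seq, in which transcripts are counted as unique molecular identifiers (UMIs). The mice, of strain B6.Pdgfbtm3Cbet, lack the retention motif of PDGF-B, the growth factor that recruits pericytes to vessels: 6 mutants carried 2 such alleles (Pdgfb ret/ret) and 6 controls carried 1 (Pdgfb ret/wt), so the controls are carriers and not wild type. Ages ran from 4 months and 7 days to 5 months and 18 days in both genotypes, and all mice were female except control mouse 6. Vessels calcify in the deep brain of the mutants and not in their cortex, and both regions of each mouse were sequenced, which gave 24 libraries, 6 for each genotype and region.

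In cells with enough oxygen the prolyl hydroxylases of the Egln family mark the alpha subunits for destruction. When oxygen falls, the subunits persist, pair with Arnt and bind DNA at a short core motif, and transcription of glucose transporters, glycolytic enzymes, pyruvate dehydrogenase kinases and genes such as Bnip3 and Car9 rises. In brain, glycolysis also differs between cell types without any lack of oxygen: astrocytes and endothelial cells are known for high glycolytic flux, and neurons for taking up glucose through Slc2a3. The alpha subunits are controlled mostly as proteins, which these data do not measure.

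The 24 libraries held 23625232 to 96459036 UMIs, and 204925 of 237224 barcodes passed the filter on genes and mitochondrial UMIs. Cortical libraries were uneven in depth: in 7 of 12 the median nucleus had fewer than 1500 UMIs, against 3547 to 7314.5 in the deep brain. Nuclei were grouped by clustering and named from marker genes, so each class name below means cells that resemble that type, and 51.5% of cortical and 6.77% of deep brain nuclei stayed unnamed. No endothelial or mural class was found in cortex. The deep brain endothelial nuclei had their own markers at 13070 to 17660 CPM (UMIs of a gene or list in a class, scaled to 1000000 UMIs of that class) in controls, but also carried mural markers at 940.3 to 2336 in controls and 143.6 to 413.2 in mutants, and those ranges do not overlap. Kept libraries shared at most 1.99% of their barcodes in any pair. Pdgfb itself, whose mutation removes only the retention motif and need not lower its RNA, had a median of 220.9 CPM in control and 203.2 in mutant endothelial nuclei of the deep brain.

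Together the members made up 2842638 UMIs, 0.202% of all UMIs in kept nuclei and 0.160% to 0.286% of single libraries. Gapdh, Eno2 and Aldoa gave the most, with 322198, 225106 and 217321 UMIs, and Car9 the fewest, with 592. Levels below are CPM of a class in a library, and a difference is a log2 fold change with its standard error from edgeR's quasi-likelihood test on UMIs summed per library and class, adjusted over all genes by Benjamini and Hochberg and called below 0.05. Gapdh, Pgk1, Ldha, Pgam1, Aldoa, Eno1 and Pkm have processed copies elsewhere in the genome, and how reads were divided among them is uncertain.

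Among the 8 classes compared here in control deep brain the summed level of the members was highest in endothelial nuclei, at 4497 ± 326 CPM (SD, n = 6 libraries), followed by astrocytes at 3413 ± 384, mural cells at 3025 ± 646 and microglia at 2558 ± 246. Every endothelial library, at 4155 CPM or more, lay above every library of the pooled astrocytes, at 3992 or less. The larger astrocyte cluster alone, led by Slc6a11 and Etnppl, ran from 3237 to 4222 CPM and overlapped endothelial nuclei. Epas1 alone gave 1077 CPM of the endothelial mean, and the order of the classes without Epas1 was not examined. Fibroblasts (2421 ± 237), oligodendrocytes (2169 ± 219), neurons (1959 ± 134) and oligodendrocyte precursor cells (OPC, 1720 ± 180) followed, and from astrocytes downward the libraries of neighbouring classes in this order overlapped. Of the classes left out, choroid plexus epithelium had 3274 ± 452 CPM in 5 libraries, perivascular macrophages 2439 ± 368, ependymal cells 2175 ± 248 in 5 and newly forming oligodendrocytes 1665 ± 133. Without Gapdh, Eno2 and Aldoa the sum over all nuclei was 1500 ± 82.7 CPM. In mutant deep brain the sum was 4595 ± 399 CPM in endothelial nuclei and 3451 ± 265 in astrocytes.

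**Figure D1:**
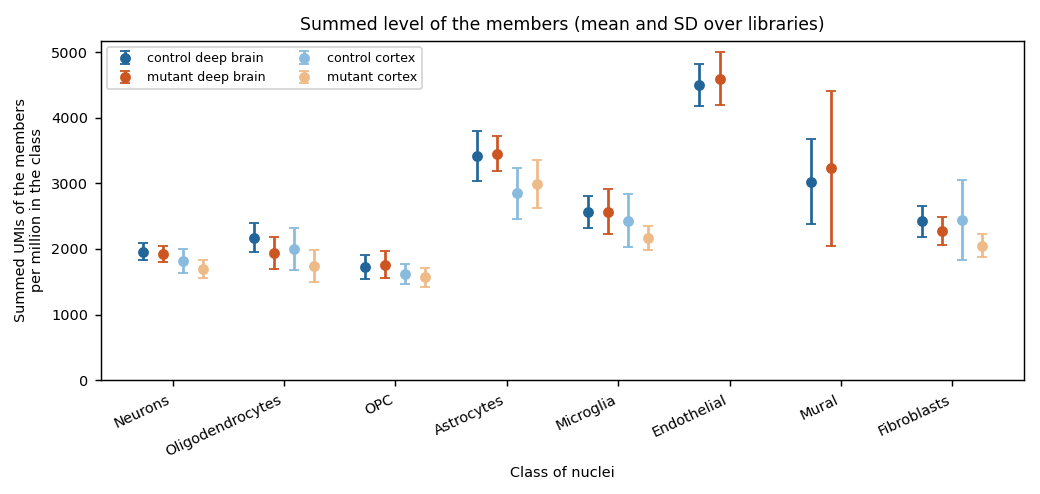
Summed CPM of the 37 members in each class (vertical axis), with points for the mean and bars for the SD over the libraries of each of the 4 groups; endothelial and mural nuclei were named in deep brain only. Endothelial nuclei stand at 4497 CPM in control and 4595 in mutant deep brain, and neurons at 1959 and 1925.

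Members differed in the class with their highest level. Among the same 8 classes, 14 of the 38 rows had their highest mean level in endothelial nuclei, 8 in astrocytes, 6 in microglia, 5 in mural cells, 2 in neurons and 1 each in fibroblasts, OPC and oligodendrocytes. Over all genes tested in deep brain the shares were 14.9%, 9.83%, 18.5%, 13.1%, 17.6%, 11.2%, 6.75% and 8.04% in that order. For 10 of the 38 rows no library of the highest class overlapped the second class (21.3% of all genes), 4 of them in endothelial nuclei, 3 in astrocytes and 3 in microglia, and none of the 5 mural rows was separated in this way. Of all genes, 2.09% were separated with endothelial nuclei highest, 2.96% with astrocytes, 5.62% with microglia and 0.352% with mural cells. These are descriptions of cells that were clustered on all variable genes, and no test was made between classes.

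**Figure D2:**
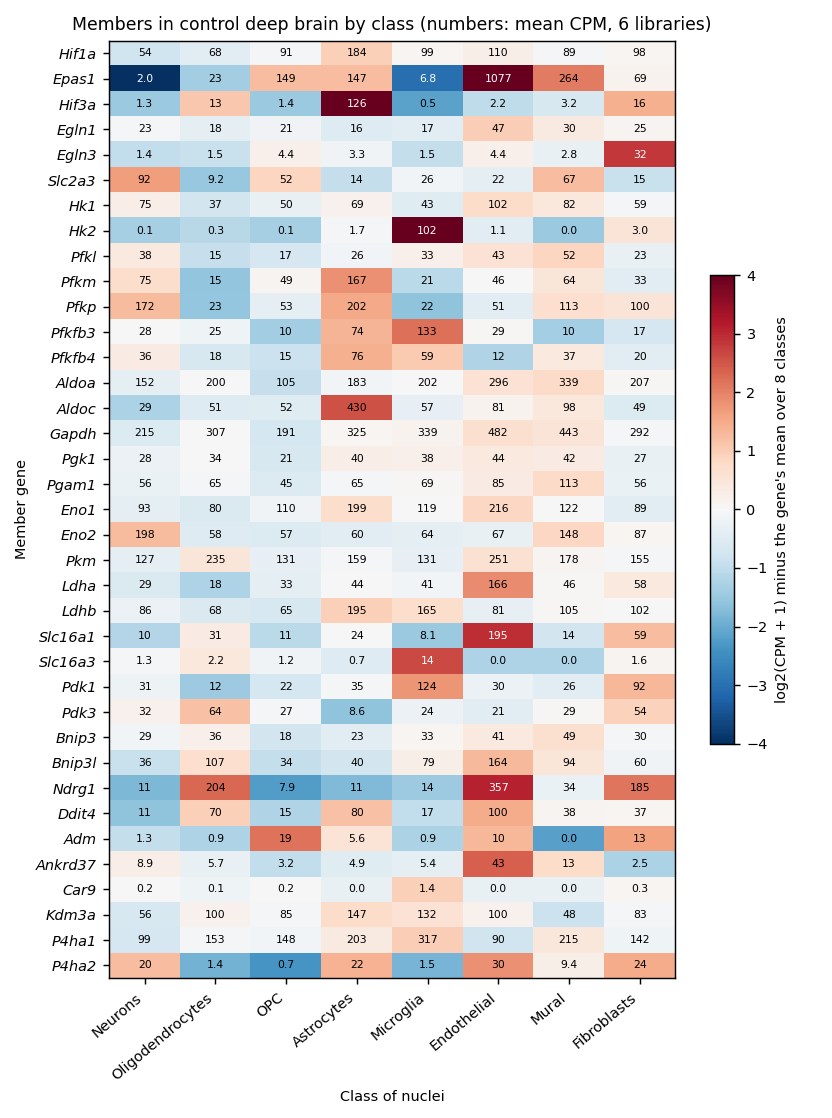
Mean CPM of each member (rows, ordered by role) in 8 classes of control deep brain (columns, 6 libraries each), printed in the cells, with colour for log2(CPM + 1) minus the mean of that gene over the 8 classes. Epas1 and Slc16a1 are darkest in endothelial nuclei, Hif3a and Aldoc in astrocytes, and Hk2 and Slc16a3 in microglia.

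Of the 3 alpha subunits, Epas1 was highest in endothelial nuclei, and Hif1a and Hif3a in astrocytes. Epas1, which encodes HIF-2 alpha and is known from endothelium, reached 1077 ± 105 CPM in endothelial nuclei, with libraries from 955.6 to 1195, 4.09 times the mural level of 264 ± 108. It was at 149 CPM in OPC, 147 in astrocytes and 2.01 in neurons. Endothelial and mural libraries did not overlap, and neurons had almost no Epas1 RNA. Hif1a was the most even of the 3, from 53.5 ± 2.32 CPM in neurons to 184 ± 32.7 in astrocytes, 1.67 times the endothelial 110 ± 29.6, and those libraries overlapped. The large astrocyte clusters differed in Hif1a, with values given below beside the regions, and not all of them lay above endothelial nuclei. Hif3a, whose products are known mostly as inhibitors of the other subunits, was an astrocyte transcript at 126 ± 60.3 CPM, 7.68 times fibroblasts, and it spread widely between mice, from 52.0 to 183 CPM. Set against Hif1a, Epas1 gave 90.8% of the UMIs of the pair in endothelial nuclei (87.1% to 93.6% in single libraries), 62.1% in OPC, 44.9% in astrocytes, 6.49% in microglia and 3.65% in neurons.

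The hydroxylases were low. Egln1, the main oxygen sensor, ranged from 16.0 CPM in astrocytes to 46.6 ± 24.9 in endothelial nuclei. Egln3, itself a target of the pathway, had 32.4 ± 18.3 CPM in fibroblasts and 1.38 to 4.44 CPM in the other 7 classes.

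Genes for entry and trapping of glucose had their highest levels in different classes. Slc2a3, the neuronal glucose transporter, had 91.6 ± 3.77 CPM in neurons and 9.17 ± 1.48 in oligodendrocytes, the lowest class. Hk2, the hexokinase induced by hypoxia and growth signals, had 102 ± 16.3 CPM in microglia and 2.96 or less in the other 7 of the 8 classes, with a median of 16.9 CPM in perivascular macrophages, from 0 to 108.5 CPM (12 UMIs), and 0.145% of the UMIs of the Hk1 and Hk2 pair in neurons were Hk2, against 69.8% in microglia. In control cortex the microglial share was 66.7%. Pfkfb3, which makes the activator of phosphofructokinase, had 133 ± 20.4 CPM in microglia, above all libraries of astrocytes at 73.8 ± 17.6, and 94.7 ± 54.7 in perivascular macrophages, whose libraries overlapped those of microglia. Of the phosphofructokinase subunits, Pfkm was highest in astrocytes, at 167 ± 23.8 CPM against 74.9 ± 5.10 in neurons, and Pfkp was close in both, at 202 ± 56.3 and 172 ± 8.20.

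Lower in the pathway, Aldoc, the brain aldolase and a known astrocyte gene, stood at 430 ± 58.9 CPM in astrocytes, 4.38 times the next class, and at 29.3 ± 6.87 in neurons. Eno2, the neuronal enolase, was highest in neurons at 198 ± 14.9 CPM. Ldha, the subunit that favours lactate formation, had 166 ± 30.0 CPM in endothelial nuclei and 18.0 in oligodendrocytes, and Ldhb, the subunit of oxidative cells, had 195 ± 15.0 in astrocytes. The lactate carrier Slc16a1 reached 195 ± 104 CPM in endothelial nuclei, and Slc16a3, the exporter of glycolytic cells, 14.0 ± 6.55 in microglia, with 50 UMIs behind it, and 21.8 ± 23.4 in perivascular macrophages, with 10.

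Among the hypoxia-induced genes, Ndrg1, which is known both as a hypoxia target and as a myelin-cell gene, had 357 ± 120 CPM in endothelial nuclei, 204 ± 16.3 in oligodendrocytes and 185 ± 26.7 in fibroblasts, against 7.88 to 34.2 CPM in the other 5 classes. Bnip3l, a mitophagy receptor, was highest in endothelial nuclei (164 ± 50.6 CPM) and then oligodendrocytes (107 ± 6.82). P4ha1, a collagen prolyl hydroxylase, was highest of the 8 classes in microglia at 317 ± 45.2 CPM. Car9, the tumour hypoxia marker, was at or near 0 in these 8 classes, with a highest mean of 1.39 CPM, and the small ependymal class held 44.6 ± 33.0 CPM in 5 control libraries.

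The first comparison asked whether the response differed in the calcified deep brain of mutants. Of all members tested in 8 classes and in all nuclei together, a single one was called, Ndrg1 in oligodendrocytes. In the sum of all nuclei, where fewer cells of a type and less RNA per cell cannot be told apart, 0 of 38 rows were called, while 1.54% of all genes were. Their median difference was 0.00 on the log2 scale, equal to that of all genes, and for 37 of 38 the 95% interval lay within a 2-fold change either way.

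The count of members called was 0 of 37 in neurons (0.307% of all genes called), 1 of 33 in oligodendrocytes (1.64%), 0 of 29 in OPC (0.0466%), 0 of 34 in astrocytes (5.28%), 0 of 28 in microglia (0.114%), 0 of 17 in endothelial cells (1.28%), 0 of 5 in mural cells (0%) and 0 of 29 in fibroblasts (0%). By unadjusted p below 0.05 in edgeR, 5 rows of all nuclei, 5 of neurons, 9 of oligodendrocytes, 4 of OPC and 1 in each of the other 5 classes would pass. The share of all genes below that p was 14.0% in all nuclei, 12.1% in neurons, 14.8% in oligodendrocytes and 5.63% in OPC, and in astrocytes, microglia, endothelial cells, mural cells and fibroblasts it was 19.2%, 5.40%, 11.0%, 19.1% and 5.48%. DESeq2 called 1 member in neurons (2.71% of all genes called), 2 in oligodendrocytes (3.60%) and 0 in the other classes (0% to 6.87%). With the replicate number as a block edgeR called 1 in neurons, Car9 (0.855% of all genes), and the oligodendrocyte count stayed at 1. Medians over the members ranged from -0.09 in fibroblasts to 0.06 in OPC and microglia, apart from the 5 members of mural cells at 0.21. Few mural nuclei were read, 177 in controls and 71 in mutants, and none of their 5 intervals lay within a 2-fold change.

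Ndrg1 (chr15:66929318-66969640, minus strand, mm10) fell in mutant oligodendrocytes. Its level ran from 186 to 230 CPM, median 205, in the 6 control libraries and from 126 to 178 CPM, median 143, in the 6 mutant ones. Every mutant library lay below every control library. The difference was -0.42 (SE 0.09, adjusted p 0.026, edgeR), and under 9 alternatives it stayed between -0.44 and -0.42 with adjusted p from 0.0012 to 0.042. In cortex the same class ran from 152 to 209 CPM in controls and from 114 to 168 CPM in mutants, which overlap, with a difference of -0.26 (SE 0.12, adjusted p 0.35). The test of whether the genotype difference itself differed between regions gave -0.18 (SE 0.15, adjusted p 1.00), so a difference confined to the deep brain was not shown.

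Oligodendrocyte markers summed to medians of 21410 CPM in control and 20530 in mutant libraries of this class in deep brain, and neuron markers to 995 and 882. Ndrg1 lies 13 megabases from Pdgfb on the same chromosome, and whether linked alleles have a part in the difference was not tested. Of the other classes in which Ndrg1 is high, endothelial nuclei gave -0.19 (SE 0.22) and fibroblasts -0.17 (SE 0.18), neither called. Bnip3l pointed the same way as Ndrg1 in oligodendrocytes, at -0.25 (SE 0.07, adjusted p 0.11), and DESeq2 called it with adjusted p 0.046. The summed level of the members in deep brain oligodendrocytes had geometric means of 1926 CPM in mutants and 2160 in controls, a log2 difference of -0.16 against an SD between libraries of 0.16.

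**Figure D3:**
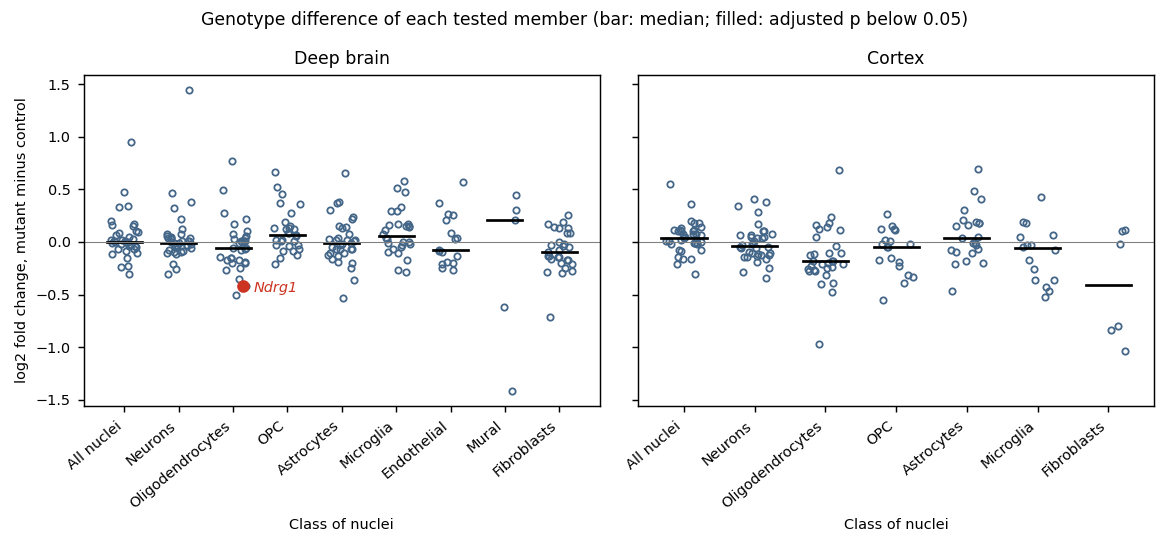
Log2 fold change of mutant minus control (vertical axis) for each tested member (points) in each class of deep brain (left) and cortex (right), with a bar at the median of the members and a filled point where adjusted p was below 0.05. Ndrg1 in deep brain oligodendrocytes, at -0.42, is the one filled point.

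Car9 in deep brain neurons counted 80 UMIs in controls (0.07 to 0.43 CPM) and 206 in mutants (0.28 to 1.17 CPM), with overlapping libraries and a difference of 1.45 (SE 0.41, adjusted p 0.15), which DESeq2 called (adjusted p 0.032). With the replicate number as a block edgeR called it too, at 1.49 (SE 0.18, adjusted p 0.020), but not with mice matched by age (1.47, SE 0.34, adjusted p 0.11). Most of the mutants' Car9 UMIs lay in 2 kinds of neurons, 104 in the cluster led by Rarb and Rgs9 and 69 in the clusters with the granule cell gene Gabra6. The Gabra6 clusters held 594 control nuclei, 567 of them in 1 library, and 3970 mutant nuclei. In the Rarb and Rgs9 cluster alone, a fit chosen after seeing the data, Car9 differed by 0.26 (SE 0.29, adjusted p 0.95). Epas1 in neurons likewise gave 0.46 (SE 0.16, adjusted p 0.24), from 723 UMIs in controls and 939 in mutants. The part of the makeup of the neurons in either difference was not tested.

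In endothelial nuclei, the class with the highest summed level of those compared, 17 members could be tested and the interval of each lay within a 2-fold change. Hif1a had 82.0 to 158 CPM in control and 131 to 194 CPM in mutant libraries, with a difference of 0.57 (SE 0.20, adjusted p 0.22). Epas1 had 956 to 1195 CPM in control and 1139 to 1523 in mutant libraries, with a difference of 0.26 (SE 0.13, adjusted p 0.51). Both overlap between genotypes, and the part of the lower mural markers of the mutants' endothelial nuclei in these values was not tested. Ldha (-0.14, SE 0.21) and Slc16a1 (0.27, SE 0.32) were not separated from 0. In microglia, where Hk2, Pfkfb3 and Slc16a3 are high, Hk2 had medians of 100 CPM in controls and 98.0 in mutants. Slc16a3 in all deep brain nuclei had 1.27 to 1.77 CPM in controls and 1.43 to 2.75 in mutants (0.47, SE 0.15, adjusted p 0.15).

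Genes of the same pathways outside the 37 members were read from fixed lists. The share of all genes called between genotypes in deep brain was 1.54% in all nuclei, 0.307% in neurons, 1.64% in oligodendrocytes, 0.0466% in OPC and 5.28% in astrocytes. Every deep brain count of a list in this paragraph stands beside that share, and most rest on 1 or 2 genes. Of other regulators of the factors, 0 were called in deep brain in all nuclei, neurons, oligodendrocytes or astrocytes (of 10, 10, 9 and 9 tested, with 0, 0, 1 and 1 at unadjusted p below 0.05 in edgeR). Of other hypoxia-induced genes, 1 of 30 fell in all nuclei and 1 of 22 in astrocytes, both Bhlhe40, a transcriptional repressor, and 1 of 22 rose in oligodendrocytes and 1 of 19 in OPC. The first of these was Rora, a nuclear receptor, at 1.10 (SE 0.10, adjusted p 1.8e-05), which also rose in cortical oligodendrocytes, by 1.56 (SE 0.12, adjusted p 6.0e-07), and the other was Vegfa, the angiogenic factor, at 0.85 (SE 0.16, adjusted p 0.028). Of other glycolysis and pyruvate genes, 1 of 23 rose in oligodendrocytes, Gpd1, and in astrocytes 1 of 20 rose and 1 fell. These were Bsg, the chaperone of the lactate carriers, at 0.68 (SE 0.09, adjusted p 7.1e-04), and Ldhd, which oxidises D-lactate, at -1.08 (SE 0.18, adjusted p 0.0026). Immediate early genes, which mark recent activity or handling, had a median of -0.64 in mutant all nuclei with 0 of 20 called higher and 2 lower, Arc and Ier5. In oligodendrocytes, the class of the Ndrg1 call, their median was -0.76 with 2 of 17 called lower, Nr4a1 (-1.11, adjusted p 0.031) and Egr1 (-1.11, adjusted p 0.036), and 1 was lower in neurons and 1 in astrocytes, both Arc. Of heat shock and stress genes 0 of 12 were called in all nuclei (3 at unadjusted p below 0.05 in edgeR). The part of such genes' shifts in the members' values was not tested.

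In the cortex, where vessels are free of calcium deposits, no member was called in any class: 0 of 37 in all nuclei (0.275% of all genes called), 0 of 36 in neurons (0.00600%), 0 of 31 in oligodendrocytes (0.909%), 0 of 19 in OPC (0%), 0 of 23 in astrocytes (1.97%), 0 of 16 in microglia (0.297%) and 0 of 6 in fibroblasts (0%). At unadjusted p below 0.05, edgeR gave 3, 2, 3, 0, 3, 2 and 1 rows in that order, beside 8.58%, 6.89%, 12.7%, 5.82%, 12.2%, 7.29% and 6.27% of all genes, and DESeq2 called 0 in all 7. Medians of the members ran from -0.18 in oligodendrocytes to 0.04 in all nuclei, with fibroblasts at -0.41 over 6 rows. Same-numbered mice deviated together in cortex, and with the number as a block 2 members were called lower in mutant oligodendrocytes, the hypoxia-induced Ankrd37 (-0.97, adjusted p 0.046) and P4ha1 (-0.37, adjusted p 0.047), while 5.05% of all genes were called there. Without the block neither was called, and Ankrd37 stood at -0.97 (SE 0.38, adjusted p 0.26). The other classes had 0 called with the block as well. Outside the members, Ppp1r3c of the other hypoxia-induced genes was called lower in mutant astrocytes (-0.77, SE 0.19, adjusted p 0.032, edgeR). Rora, given above, was called higher in oligodendrocytes. Both stand beside the shares of all genes given above for these classes.

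The test of whether the genotype difference itself differed between deep brain and cortex called 0 members: 0 of 38 in all nuclei (0.00463% of all genes), 0 of 38 in neurons (0.171%), 0 of 34 in oligodendrocytes (0%), 0 of 30 in OPC (0%), 0 of 32 in astrocytes (0%), 0 of 28 in microglia (0%) and 0 of 30 in fibroblasts (0.0230%). In that order 1, 2, 0, 4, 1, 5 and 2 rows had unadjusted p below 0.05 in edgeR, beside 6.69%, 8.56%, 3.12%, 5.03%, 4.68%, 3.59% and 7.73% of all genes, and DESeq2 called 0. Outside the members, Pgm2 of the other glycolysis and pyruvate genes was called in neurons (-0.50, SE 0.10, adjusted p 0.041, edgeR). The share of all genes called there was 0.171%. The summed level of the members differed between genotypes by no more than about the SD between libraries in every class and region, from -0.22 in cortical fibroblasts to 0.07 in cortical astrocytes.

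The second comparison set deep brain beside cortex of the same control mice, with no term for the mouse in the main fit. Hif1a was higher in 1 of the 2 large astrocyte clusters of the deep brain than in cortical astrocytes and near their level in the other, Aldoc, Pkm and Ndrg1 rose and Slc2a3 and Ldha fell in deep brain neurons, and Slc16a1 fell in deep brain fibroblasts. The 2 regions hold different kinds of neurons, so regional differences between neurons are also differences between neuron types. The regions were clustered separately, and astrocytes were 3 clusters in deep brain and 2 in cortex and fibroblasts 2 and 1. For fibroblasts the part of such kinds in the differences was not tested. In all nuclei 2 of 38 rows were higher and 9 lower in deep brain (36.0% of all genes called), and in neurons 8 of 37 were higher and 9 lower (36.1%). In astrocytes 8 of 31 members were higher and 0 lower (10.5%), with a median of 0.26 over the members and 0.00 over all genes. In oligodendrocytes 1 of 33 was higher and 1 lower (6.78%), in OPC 1 of 29 each way (4.40%), in fibroblasts 1 of 20 each way (6.41%) and in microglia 0 of 25 (2.11%), with 4 at unadjusted p below 0.05, beside 11.6% of all genes, and 0 by DESeq2.

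Hif1a summed over all astrocytes rose in deep brain, from 77.4 to 114 CPM, median 90.2, in control cortex to 150 to 231 CPM, median 171, in control deep brain. No library of one region overlapped the other. The difference was 0.96 (SE 0.14, adjusted p 6.1e-05), and mutants showed the same order, with 72.9 to 113 CPM in cortex and 147 to 187 CPM in deep brain. The 2 large astrocyte clusters of the deep brain differed in this gene. In 3284 control nuclei led by Slc6a11 and Etnppl it had 192 to 264 CPM, above every cortical library, and in 1367 led by Slco1c1 and Slc1a3 it had 89.3 to 105 CPM, inside the cortical range. Against all cortical astrocytes, in fits chosen after seeing the data, the first gave 1.25 (SE 0.13, adjusted p 3.6e-08) and the second 0.02 (SE 0.13, adjusted p 1.00). In mutants the 2 clusters had 170 to 205 CPM and 70.6 to 104 CPM. The nuclei were clustered on all variable genes, so the split between these clusters is a description. In neurons Hif1a was lower in deep brain (-0.26, SE 0.06, adjusted p 0.0057), but was not called with the 3 deeper cortical libraries alone (-0.20, adjusted p 0.089). The gene lies at chr12:73901375-73947530 on the plus strand.

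The other 7 members called in astrocytes summed over clusters were all higher in deep brain: Ndrg1 (1.18), Eno2 (0.72), Pgam1 (0.71), Pfkfb3 (0.68), Pfkp (0.55), Kdm3a (0.45), a histone demethylase that the factors induce, and Pkm (0.45), with adjusted p from 0.0076 to 0.037. Without the male mouse Ndrg1 and Pfkp had adjusted p of 0.056. Pgam1, the mutase of lower glycolysis, had 46.7 to 77.2 CPM in deep brain and 25.3 to 53.2 CPM in cortex. Pfkfb3 had 39.71 to 87.96 CPM and 29.9 to 50.7 CPM. Ndrg1 rested on 16 UMIs in cortical astrocytes, and the part of RNA from oligodendrocytes in its difference was not tested. Aldoc and Hif3a, which were highest in astrocytes, and Epas1 were not called, and Aldoc had -0.16 (SE 0.15).

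The count too differed between the clusters. The Slc6a11 and Etnppl cluster against cortical astrocytes had 12 members called higher and 1 lower (17.6% of all genes called), and the Slco1c1 and Slc1a3 cluster had 0 of 26 by edgeR (0.735%), with 3 at unadjusted p below 0.05. In the second Eno2 stood at 0.65 (SE 0.21, adjusted p 0.22) and Pfkfb3 at 0.12 (SE 0.19, adjusted p 0.94). With the mouse as a block 12 members were called higher in astrocytes and 0 lower, while 13.1% of all genes were called. In cortical libraries with a median of at least 1500 UMIs per nucleus, which leaves 3 of the 6 control cortex libraries, 3 were called, beside 6.32% of all genes, and Hif1a, Eno2 and Pgam1 remained. Neuron markers in astrocytes summed to 714 to 1055 CPM in control deep brain and to 1203 to 1896 CPM in control cortex, and their part was not tested. Cortical astrocytes numbered 752 control nuclei against 4661 in deep brain, and their part in the difference was not tested. The summed level in astrocytes was 3413 ± 384 CPM in control deep brain and 2847 ± 393 in control cortex.

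**Figure D4:**
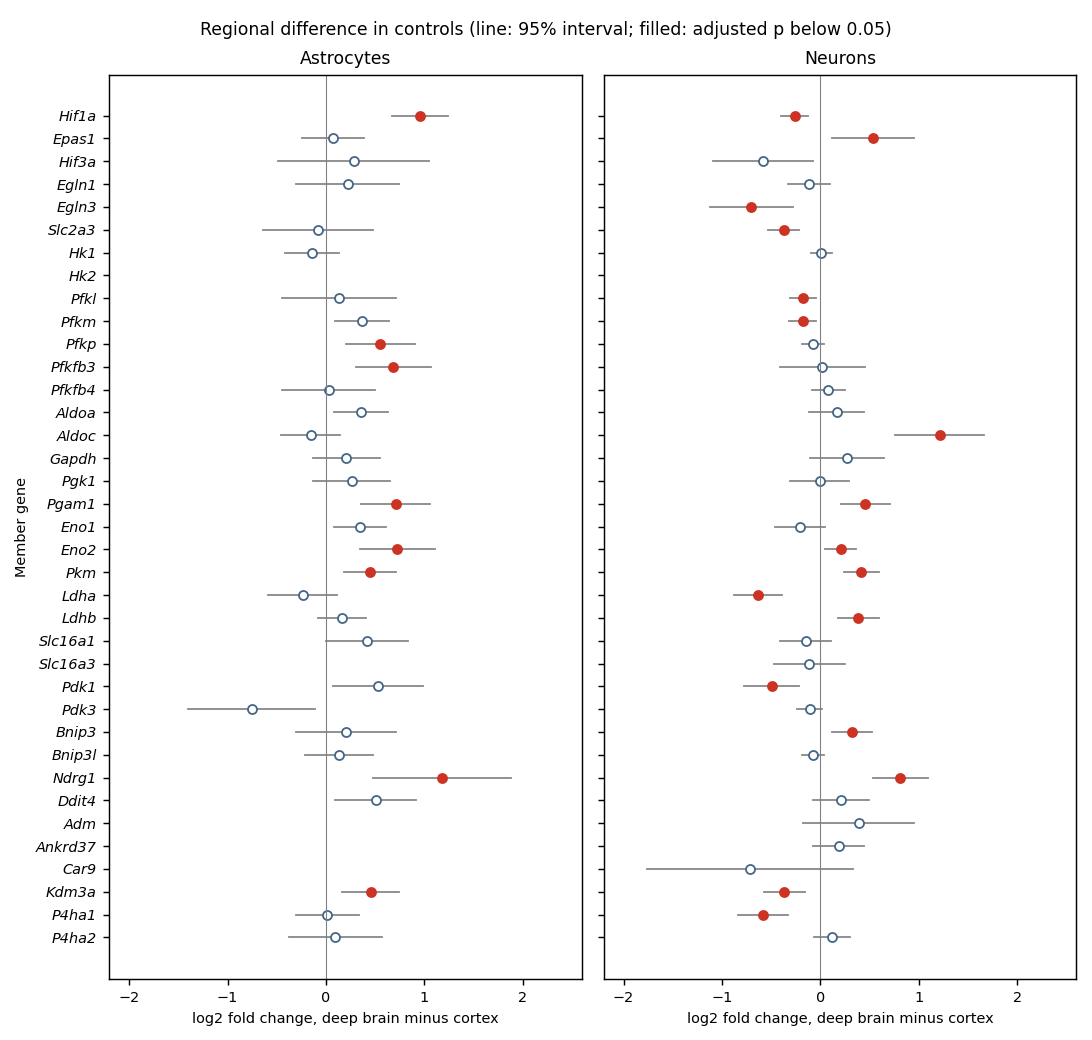
Log2 fold change of deep brain minus cortex in controls (horizontal axis) for each tested member (rows), with lines for the 95% interval and filled points where adjusted p was below 0.05, in astrocytes (left) and neurons (right). In astrocytes all 8 filled points lie to the right of 0, and in neurons 8 lie to the right and 9 to the left.

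In neurons the members split. Aldoc rose from 7.48 to 19.7 CPM, median 11.0, in control cortex to 19.6 to 38.1 CPM, median 28.4, in deep brain, ranges that barely overlap, with a difference of 1.21 (SE 0.21, adjusted p 5.8e-04). Pkm, the last enzyme of glycolysis, had 79.0 to 99.5 CPM in cortex and 106 to 149 CPM in deep brain (0.42, SE 0.08, adjusted p 0.0013), and the libraries did not overlap. Ndrg1 had 4.79 to 7.20 CPM and 8.23 to 13.5 CPM (0.81, SE 0.13, adjusted p 3.0e-04). Oligodendrocytes of control deep brain had 204 CPM of Ndrg1, and the part of RNA from them in the neuron values was not tested. Higher in deep brain neurons were also Epas1, Pgam1, Ldhb, Bnip3 and Eno2, with differences from 0.20 to 0.54.

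Lower in deep brain neurons were the transporter and the lactate-forming subunit. Slc2a3 had 95.2 to 125 CPM, median 110, in cortex and 84.6 to 95.8 CPM, median 92.7, in deep brain (-0.37, SE 0.07, adjusted p 0.0014), with ranges that overlap slightly. Ldha had 32.1 to 49.7 CPM in cortex and 25.01 to 33.6 CPM in deep brain (-0.64, SE 0.11, adjusted p 6.5e-04), and these ranges overlap too. For both genes the overlap comes from the cortex library of control mouse 5, at 95.25 CPM of Slc2a3 and 32.11 CPM of Ldha. Ldha and Ldhb, the paired subunits of lactate dehydrogenase, thus differed in opposite directions, Ldhb by 0.38 (SE 0.10, adjusted p 0.0069). Egln3, P4ha1, Pdk1, Kdm3a, Hif1a, Pfkm and Pfkl were the other 7, from -0.70 to -0.18. In the 3 deeper cortical libraries alone 5 members were higher and 5 lower, beside 22.3% of all genes called. Aldoc, Pkm, Ndrg1, Ldhb, Pgam1, Slc2a3, Ldha, Kdm3a, P4ha1 and Egln3 remained, and Epas1, Bnip3, Eno2, Hif1a, Pdk1, Pfkl and Pfkm were no longer called. The mitochondrial share of UMIs ran from 0.0791% to 0.487% in control cortex libraries and from 0.0773% to 0.172% in control deep brain. The part of this share in the regional differences was not tested.

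**Figure D5:**
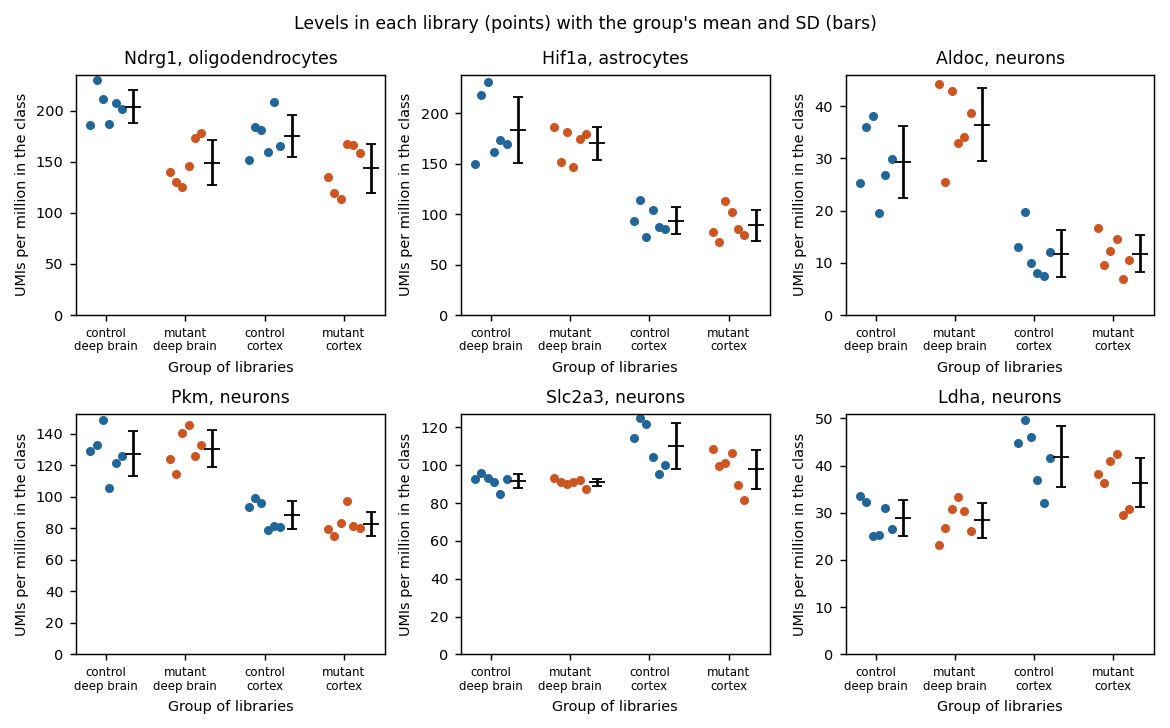
Level of 6 members in the class named above each panel, as CPM (vertical axis, from 0), for every library of the 4 groups (points), with the mean and SD beside them. Ndrg1 in oligodendrocytes runs from 126 to 178 CPM in mutant and from 186 to 230 CPM in control deep brain, and Hif1a in astrocytes is higher in deep brain than in cortex in both genotypes.

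In all nuclei Ndrg1 was higher in deep brain, from 14.7 to 22.0 CPM in cortex to 26.3 to 42.4 CPM (0.85, SE 0.11, adjusted p 7.5e-05), as was Epas1 (0.53, SE 0.16). Slc2a3 ran from 88.7 to 114 CPM in cortex and from 71.5 to 81.2 CPM in deep brain (-0.51, SE 0.07, adjusted p 1.1e-04), with no overlap. Ldha ran from 32.5 to 69.1 CPM in cortex and from 25.8 to 33.9 CPM in deep brain (-0.91, SE 0.14, adjusted p 2.6e-04). The library of control mouse 5 in cortex lay inside the deep brain range of Ldha, and the others were at 43.8 CPM or above. In the 3 deeper cortical libraries alone 6 members were called in all nuclei, beside 24.2% of all genes. Ndrg1, Slc2a3 and Ldha remained (Ldha at -0.70, adjusted p 0.0076), and Epas1, Eno1, Hk1, Pdk1, Pfkl and Pfkm were no longer called. Oligodendrocytes, which have the most Ndrg1 of the large classes, were 24.2% of kept deep brain nuclei and 8.65% of cortical ones, and in a sum over all nuclei this cannot be told apart from a change within cells. In oligodendrocytes themselves Ndrg1 differed by 0.19 (SE 0.09, adjusted p 0.24). There Slc2a3 was lower in deep brain (-0.91, SE 0.20, adjusted p 0.0082), and neuron markers in this class were lower too, at 672 to 1090 CPM against 1566 to 2285 CPM in cortex, and their part was not tested. In the 3 deeper cortical libraries alone Slc2a3 stood at -0.56 (adjusted p 0.19). Ldhb was higher (0.46, SE 0.13, adjusted p 0.040), but at 0.40 without the male mouse (adjusted p 0.13).

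The lactate carrier Slc16a1 fell in deep brain fibroblasts, from 107 to 205 CPM, median 142, in 5 control cortex libraries to 43.0 to 76.3 CPM, median 59.3, in 6 of deep brain. The ranges do not overlap, and the difference was -1.40 (SE 0.23, adjusted p 0.0015), from 80 UMIs in cortex. The highest control cortex value came from 13 UMIs in 9 nuclei and the lowest from 6 UMIs in 6 nuclei. The control cortex libraries with the most fibroblasts, 54 and 42 nuclei, had 109 and 177 CPM. Mutants showed 100 to 271 CPM in cortex, where the highest value was 9 UMIs in 5 nuclei, and 44.5 to 123 CPM in deep brain. Pdk1 in fibroblasts was higher in deep brain (1.18, SE 0.33, adjusted p 0.046, 20 UMIs in cortex) but not with the mouse as a block (adjusted p 0.12). In OPC Adm, the vasodilator peptide adrenomedullin, was lower in deep brain (-1.05, SE 0.25, adjusted p 0.010) and Bnip3 higher (1.06, SE 0.28, adjusted p 0.028), though DESeq2 gave Bnip3 an adjusted p of 0.062. With the block, oligodendrocytes had 2 members higher and 2 lower (9.65% of all genes called), and microglia 1 higher (3.09%), Gapdh (0.44, adjusted p 0.020).

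Of the fixed lists, immediate early genes were lower in deep brain, 17 of 20 in all nuclei and 13 of 20 in neurons, where 1 was higher, with a median of -1.03 in all nuclei. The share of all genes called in either direction was 36.0% in all nuclei, 36.1% in neurons and 10.5% in astrocytes, and the counts of the lists stand beside it. In astrocytes 3 of 11 were lower and 0 higher. Of other glycolysis and pyruvate genes 5 of 28 were higher and 5 lower in neurons, and in astrocytes 1 of 19 was higher and 2 lower. Of other hypoxia-induced genes 5 of 28 were higher in neurons and 3 lower, led by Plod1, a collagen-modifying enzyme, at 1.38 (SE 0.16, adjusted p 2.5e-05), and Gbe1, which branches glycogen, at 0.61 (SE 0.08, adjusted p 6.6e-05). In astrocytes 1 of 22 was higher. The list of other regulators of the factors gave 1 higher (Hspa4l) and 2 lower (Vhl and Arnt2) of 10 in neurons. In astrocytes none of its 9 tested genes was called, and no unadjusted p was below 0.05 in edgeR. Heat shock and stress genes gave 2 higher and 1 lower of 12 in neurons and 1 higher of 7 in astrocytes.

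To show the letters of the factors' core motif, promoter sequences are given for 4 members called between regions in a class. RefSeq gave a window for 33 of the 37 members on GRCm38.p6, and Bnip3l, Epas1, Ndrg1 and Slc2a3 had none. In the 250 bases before the start, ACGTG or GCGTG on either strand, 2 letter strings that can overlap, was found in 32 of 33 members (97%) and in 11226 of 27025 genes (41.5%), and 66.7% of members and 18.7% of genes had it at 2 or more places. A match describes letters only, and the members were in part picked as targets of these factors. The 250 bases are given from 5′ to 3′ along the gene, with the matches in capitals. For Aldoc and Ldha the table holds 2 starts, and the first by coordinate is given.
Hif1a: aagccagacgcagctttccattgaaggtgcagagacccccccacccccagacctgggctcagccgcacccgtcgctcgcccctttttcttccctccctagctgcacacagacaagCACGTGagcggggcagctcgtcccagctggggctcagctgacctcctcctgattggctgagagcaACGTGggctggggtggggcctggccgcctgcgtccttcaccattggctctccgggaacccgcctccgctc
Ldha: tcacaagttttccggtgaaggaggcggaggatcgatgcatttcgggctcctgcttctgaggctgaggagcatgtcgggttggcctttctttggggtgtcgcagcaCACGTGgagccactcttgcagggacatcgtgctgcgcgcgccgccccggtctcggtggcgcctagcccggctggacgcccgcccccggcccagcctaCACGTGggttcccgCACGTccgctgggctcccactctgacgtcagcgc
Aldoc: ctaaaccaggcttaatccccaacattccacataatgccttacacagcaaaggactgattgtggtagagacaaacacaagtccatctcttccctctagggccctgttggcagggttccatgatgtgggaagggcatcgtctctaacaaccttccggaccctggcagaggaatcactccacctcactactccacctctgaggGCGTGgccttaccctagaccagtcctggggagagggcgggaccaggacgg
Slc16a1: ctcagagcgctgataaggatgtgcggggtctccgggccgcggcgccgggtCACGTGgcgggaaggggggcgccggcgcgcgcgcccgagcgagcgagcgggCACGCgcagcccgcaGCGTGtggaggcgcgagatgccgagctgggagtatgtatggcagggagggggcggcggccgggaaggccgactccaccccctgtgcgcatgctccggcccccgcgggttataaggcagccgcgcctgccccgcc
Hif1a is at chr12:73907617-73907866, Ldha at chr7:46845554-46845803, Aldoc at chr11:78322823-78323072 and Slc16a1 at chr3:104638414-104638663, all on the plus strand. They hold 3, 5, 1 and 4 matches, counting each start of an overlapping pair.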

How the data were processed

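Nuclei of both regions of 12 mice, 6 per genotype, were sequenced by droplet single-nucleus RNA-seq from the 5′ end, which gave 24 libraries. The authors deposited filtered UMI counts per gene and nucleus, made with Cell Ranger 5.0.1 with intronic reads included and, per the submitters' processing notes, bcl2fastq 2.20.0.422 and genome build mm10. Groups were taken from the labels, and replicates are separate mice. The filter on nuclei asked for over 500 and under 7000 detected genes and for mitochondrial UMIs below 20%. For each region 2000 variable genes were picked with scanpy 1.11.5, and nuclei were clustered with Seurat 5.3.0 (20 principal components, 20 neighbours, resolution 0.01). These first clusters were divided again at 0.1, and mixed ones among the parts further at 0.5. Clusters were named from marker genes by fold over a low percentile of the levels in the first clusters, with a pseudocount of 10 CPM. Doublets were not removed beyond the upper limit on genes. Scrublet, at an expected rate of 0.06, served as an alternative.

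UMI counts were summed per library and class, in libraries with at least 5 nuclei and classes with at least 4 libraries per group (fewer where libraries were left out, 3 control cortex libraries without the shallow ones), and tested with edgeR 4.0.16 (R 4.3.3, filterByExpr, TMM, quasi-likelihood) over all genes, with Benjamini-Hochberg adjusted p called below 0.05. The comparisons were genotype in each region, region in controls, and their interaction. The steps were tested on simulated data. Between genotypes in deep brain, simulated 1.5-fold changes were recovered for 80.9% of changed genes in all nuclei and 54.8% in oligodendrocytes. In fibroblasts it was 20.3% and in endothelial nuclei 7.7%. Simulated 2-fold changes were recovered for 91.7%, 82.5%, 72.2% and 73.6% in that order, so small differences may go uncalled. Alternatives were DESeq2 1.42.0, RLE size factors, no filter on low counts, blocks by replicate number, age or mouse, and leaving out the male mouse, shallow cortical libraries, nuclei above 5% mitochondrial UMIs or Scrublet doublets. Fits of single neuron and astrocyte clusters were added after seeing the data. CPM intervals between libraries are SDs, and depth limits low genes by counting error.

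The members, the fixed lists (other HIF pathway regulators, other hypoxia-induced genes, other glycolysis and pyruvate genes, immediate early genes, heat shock and stress genes) and the markers were chosen with earlier results of these data known. Named were all members and at most 3 genes of the other pathway lists per comparison by adjusted p. Bhlhe40, Vegfa, Gpd1, Arc, Ier5, Nr4a1, Egr1, Hspa4l, Vhl and Arnt2, members given with values though not called, and called members given full statistics beyond the 10 per comparison that the rule allowed, were chosen after their values were seen. Deep brain and cortex of a mouse are paired by the labels, but the main fits between regions and of the interaction had no term for the mouse. Their standard errors and p do not use the pairing, and the mouse as a block was an alternative. Between genotypes, deviations of same-numbered mice from their group means correlated at 0.21 to 0.76 over all cortical nuclei, above 0.1 in 6 of 6 pairs, and at -0.13 to 0.27 in deep brain, above 0.1 in 3 of 6. Some results are not reported here.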

Additional observations from a re-analysis of the deposited data

Results flagged for a closer look

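Among 76 groups of library values examined, 1 had a sample far from the others. Pkm, the last enzyme of glycolysis, stood at 97.49 CPM in neurons of mutant cortex replicate 4, against 75.32 to 83.26 CPM in the other libraries of that group, a gap of 0.642 of the group's range. Chance alone flags about 1 in 20 groups.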

How the results depend on the processing

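Of 259 counts of members called under an alternative, 233 stayed within 1.5 times the reported count. The 60 log2 fold changes of members examined gave 510 values under alternatives. None changed direction, 460 kept their side of the threshold, 43 region calls were lost and 7 differences became calls. Of the lost calls, 21 went with the deeper cortical libraries alone, which also leave fewer libraries, 7 without the male mouse and 7 in astrocytes with the Slco1c1 and Slc1a3 cluster of deep brain alone. The 32 summed levels moved by less than 1 SD. The cause of the moves was not tested. Between genotypes in deep brain, DESeq2 called 1 member in neurons (2.71% of all genes called) and 2 in oligodendrocytes (3.60%), the replicate block 1 in neurons (0.855%; Car9, 1.49, adjusted p 0.020, edgeR), the age-matched block 1 in astrocytes (5.88%; Pfkp), and leaving out the low-count filter 1 in OPC (0.352%) and 1 in endothelial nuclei (0.864%), both Adm, and 2 in mural nuclei (2.84%), Pfkfb3 and Aldoc. Same-numbered mice of the deep brain correlated above 0.1 in 3 of 6 pairs, so the block is given there as an alternative. It left the count in oligodendrocytes at 1. In cortex the replicate block called 2 in oligodendrocytes (5.05%), and no filter 1 in astrocytes (1.42%), Adm. Between regions, the deeper cortical libraries alone, 3 of controls, gave 6 in all nuclei (24.2%), 10 in neurons (22.3%), 3 in astrocytes (6.32%) and 1 in fibroblasts (3.81%). No filter gave 4 in oligodendrocytes (4.57%), 5 in OPC (3.85%), 13 in astrocytes (6.99%) and 2 in microglia (1.42%). The mouse as replicate block gave 4 in oligodendrocytes (9.65%), 1 in microglia (3.09%) and 1 in fibroblasts (3.32%), DESeq2 gave 1 in OPC (4.60%), RLE size factors 1 in fibroblasts (6.33%), and leaving out the male mouse 1 in oligodendrocytes (5.58%) and 1 in fibroblasts (7.07%). In astrocytes the Slc6a11 and Etnppl cluster of deep brain alone gave 13 (17.6%) and the Slco1c1 and Slc1a3 cluster 0 (0.735%, with 3 members at unadjusted p below 0.05 in edgeR). The fits of these and of 3 neuron clusters alone were chosen after seeing the data. Scrublet called at most 0.07% of nuclei in 8 cortical libraries, so it did not work there. Fewer members could be tested in small classes and in shallow cortical libraries, where differences may have gone undetected.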
